A study of Mus musculus with 45 samples.

Results

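C-type lectin receptors were followed across 45 RNA sequencing libraries of mouse bone marrow-derived macrophages. The set was fixed by name, with earlier results of these data known, as Clec4e, Clec4d, Clec4n, Clec7a, Clec5a, Clec10a, Mgl2, Mrc1 and Clec12a. Each symbol was matched to its Ensembl gene. All 9 listed genes were found among the 29307 genes of the count table and among the 11900 genes of the CPM table, and all 9 passed the filter on low counts that left 12905 genes for testing. The macrophages came from C57BL/6N mice aged 6 to 10 weeks that carried 1 of 3 alleles of Famin, the gene also called Lacc1: p.254I, p.254V or p.284R. Marrow was cultured for 6 days with M-CSF and the macrophages were then left unstimulated (M0), polarized with IFN-γ and LPS (M1) or polarized with IL-4 (M2). Each allele was represented by 5 mice and each mouse by its M0, M1 and M2 culture, which gave 9 groups of 5 libraries. A shared genotype and replicate number was read as the same mouse, which the sources used here do not state. Every group thus carried a named Famin allele in all cells of the mouse. Famin p.254I served as the reference, the p.254V and p.284R groups were both compared with the same p.254I libraries, and p.284R entered its comparisons with p.254I and p.254V with the same libraries.

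C-type lectin receptors recognize carbohydrate and lipid structures on microbes and on damaged or altered cells. Mincle (Clec4e), MCL (Clec4d) and Dectin-2 (Clec4n) signal through the ITAM adaptor FcRγ, Dectin-1 (Clec7a) carries its own hemITAM, and MDL-1 (Clec5a) pairs with DAP12, and the kinase Syk and the adaptor CARD9 relay the signal to cytokine genes. The mannose receptor (Mrc1, CD206) and the galactose-type lectins Clec10a and Mgl2 (CD301) mainly take up glycoproteins and are widely used as markers of IL-4-treated macrophages, whereas Clec12a carries an inhibitory ITIM.

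Sequencing depth was 27553642 counts in the median library (lowest 17239009, highest 43740283), so that 1 CPM stood for between 16.4 and 48.2 reads. The labels were checked on marker genes. Cxcl9 lay between 979 and 5340 CPM in M1 and did not exceed 1.45 CPM in M0 or 0.989 CPM in M2, and Arg1 lay between 705 and 1421 CPM in M2. The M1 library of p.254I replicate 5 stood apart from the other M1 libraries: it held 40.8 CPM of Arg1 and 49.1 CPM of Retnla, where the other 14 M1 libraries held at most 0.912 and 0.249 CPM. Results of Mgl2 in M1, and the comparison of Clec4n between M1 and M2, are also given without it, an alternative chosen after seeing the data. All 7 macrophage markers had a mean of at least 1 CPM in each group, and the macrophage genes Adgre1 and Csf1r had at least 1269 and 1471 CPM in every library. Markers of other cells summed to 47.8 to 396 CPM for 10 neutrophil genes, 6.70 to 89.6 CPM for 5 fibroblast genes, 2.28 to 11.8 CPM for 7 lymphocyte genes and 0.309 to 2.37 CPM for 5 mast cell and basophil genes. In RNA from whole cultures, fewer cells of a type and less RNA per cell cannot be told apart. The p-values of the main test rest on the spread between mice within a group, estimated over M0, M1 and M2 together. They treat cultures of the same mouse, and same-numbered libraries of different genotypes, as independent.

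Coordinates are from GRCm38. On chromosome 6, Clec4n (123229843 to 123247021, plus strand), Clec4d (123262111 to 123275265, plus strand) and Clec4e (123281789 to 123289870, minus strand) were direct neighbours, with gaps of 15.1 and 6.5 kb and no other protein-coding gene between them. Clec12a (129342691 to 129365303, plus strand) and Clec7a (129461591 to 129472779, minus strand) lay 96.3 kb apart on the same chromosome, with the lectin genes Clec12b, Clec1b, Clec9a and Clec1a in the gap. Clec5a (40574894 to 40585821, minus strand) lay far from both groups. Mgl2 (70130329 to 70137550) and Clec10a (70156197 to 70170834) were neighbours 18.6 kb apart on the plus strand of chromosome 11. Their transcripts share sequence: of the distinct 50-base stretches, the read length, 9.02% of those of Clec10a and 13.1% of those of Mgl2 also occur in another gene, and 270 are common to both, so reads of these stretches could have been assigned to either gene or dropped. Mrc1 lay on chromosome 2 (14229392 to 14332057, plus strand) and overlaps Mir511 on the same strand. For the other members at most 0.69% of the stretches were shared.

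The RefSeq promoter table (GRCm38.p6) held 7 of the members. The promoters of Clec7a, Clec5a and Mgl2, which rose in M2, and of Clec4e are shown as the 250 bases before the RefSeq start. That start need not match the gene bounds given above, which are from GENCODE. The windows of Mgl2, Clec5a and Mrc1 reach into those bounds, and that of Clec12a lay within its gene. Mgl2 rose most of the members in M2. Clec4e was the only member to pass the main test between genotypes, and that result depended on the libraries and the model. Capitals mark letters searched for on both strands: TTC and GAA with 4 bases between them (a spacing typical of STAT6) and GAGGAA (a PU.1-type core).
Clec7a (chr6:129472780-129473029, minus strand): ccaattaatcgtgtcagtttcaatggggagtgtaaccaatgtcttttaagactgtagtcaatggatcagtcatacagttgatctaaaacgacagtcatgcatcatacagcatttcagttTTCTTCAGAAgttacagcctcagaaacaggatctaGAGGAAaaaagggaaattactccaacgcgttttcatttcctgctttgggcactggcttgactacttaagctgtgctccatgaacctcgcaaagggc
Clec5a (chr6:40585806-40586055, minus strand): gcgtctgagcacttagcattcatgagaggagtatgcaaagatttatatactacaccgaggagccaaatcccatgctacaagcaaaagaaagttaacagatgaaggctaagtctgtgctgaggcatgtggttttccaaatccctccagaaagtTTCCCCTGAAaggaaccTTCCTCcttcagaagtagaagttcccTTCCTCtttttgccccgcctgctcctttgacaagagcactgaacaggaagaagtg
Mgl2 (chr11:70130107-70130356, plus strand): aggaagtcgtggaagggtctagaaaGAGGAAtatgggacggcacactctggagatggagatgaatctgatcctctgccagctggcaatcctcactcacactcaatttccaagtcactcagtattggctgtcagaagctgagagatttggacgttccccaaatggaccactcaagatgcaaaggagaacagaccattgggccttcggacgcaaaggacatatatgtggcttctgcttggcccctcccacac
Clec4e (chr6:123289872-123290121, minus strand): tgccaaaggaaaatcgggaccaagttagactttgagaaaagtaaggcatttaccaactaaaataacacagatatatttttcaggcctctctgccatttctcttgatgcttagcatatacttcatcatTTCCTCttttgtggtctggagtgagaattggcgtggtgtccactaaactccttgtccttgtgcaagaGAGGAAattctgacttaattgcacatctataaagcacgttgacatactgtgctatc
The STAT6-type letters, with the 4-base gap, occurred in the promoters of Clec7a and Clec5a and in 5.85% of all 32851 promoters of this length. They did not occur in those of Mgl2 and Mrc1 (not shown), which also rose in M2. Nor did they occur in those of Clec4d, Clec4e and Clec12a, which fell in M2. GAGGAA was found in each of the 7 members and in 23.3% of all promoters. A match describes these letters and does not show a bound site.

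Levels were first compared between members per length, as RPKM (CPM divided by the kilobases of merged exon), over the 15 libraries of each polarization. In M0, Clec4d was highest at 364 ± 44.2 RPKM (SD, n = 15), followed by Clec7a at 244 ± 64.1, Clec12a at 140 ± 24.3 and Mrc1 at 119 ± 12.1, and each of these neighbours overlapped in range. Clec4n at 26.6 ± 8.43 RPKM stood apart from Mrc1 above it and Clec10a below it. Clec10a, Clec4e and Clec5a lay between 2.13 and 11.4 RPKM and overlapped, and Mgl2 was lowest at 0.685 ± 0.372 RPKM and apart from the rest.

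The order differed after polarization. In M1, Clec12a led at 210 ± 16.8 RPKM (SD, n = 15) and Clec7a followed at 114 ± 22.0, each apart from the next. The ranges of all later neighbours overlapped, from Clec4d at 37.2 ± 20.4 RPKM down to Mgl2 at 0.861 ± 1.76 RPKM. The overlap of Mgl2 with Clec4e rested on the library set apart above by its Arg1 and Retnla levels, at 7.16 RPKM of Mgl2. In every other M1 library Mgl2 lay below the lowest Clec4e value of 1.31 RPKM. The Mgl2 mean and SD include that library. In M2, Clec7a led at 670 ± 116 RPKM, apart from Mgl2 at 244 ± 43.8. Mgl2 overlapped with Mrc1 at 205 ± 56.0 RPKM, and Mrc1 stood apart from Clec4d at 65.0 ± 8.72 RPKM and Clec12a at 62.2 ± 6.11 RPKM, which overlapped. Clec4n, Clec10a and Clec5a overlapped as neighbours between 4.40 and 35.3 RPKM, and Clec4e was last at 0.580 ± 0.305 RPKM and apart from Clec5a.

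**Figure D1:**
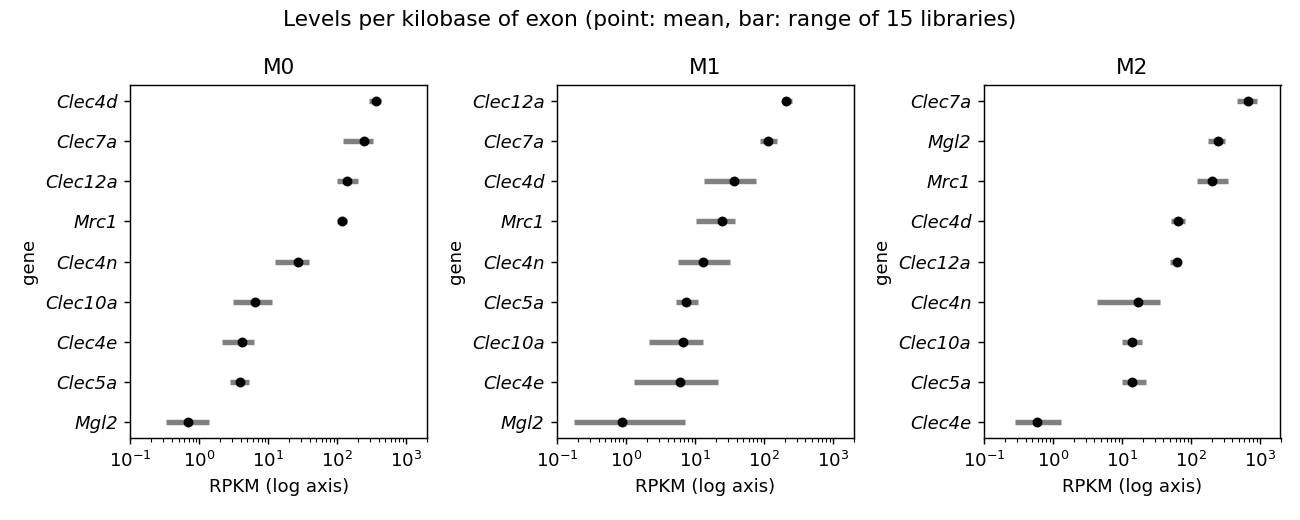
Level of each receptor in RPKM (log axis) in M0, M1 and M2, ordered by mean, with the mean of 15 libraries as a point and their range as a bar. Clec4d led in M0 at 364 RPKM, Clec12a in M1 at 210 RPKM and Clec7a in M2 at 670 RPKM.

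M1 and M2 polarization were each compared with M0 as the mean over the 3 genotypes, with edgeR's quasi-likelihood test on all 45 libraries and Benjamini-Hochberg adjustment over the 12905 genes. In M1, 2 members were called higher and 4 lower at an adjusted p under 0.05, 6 of 9 in all, where 77.3% of all genes tested were called (37.0% higher, 40.3% lower). In M2, 5 were called higher and 4 lower, 9 of 9, against 76.4% of all genes (36.8% higher, 39.6% lower). M1 and M2 differed for 8 of 9 members, 2 higher and 6 lower in M1, against 79.1% of all genes (39.0% higher, 40.1% lower). The median log2 fold change of the members was -0.13 in M1 and 0.78 in M2, and that of all genes was -0.03 in both. The ranges of the 15 libraries did not overlap between M1 and M0 for 3 members (28.6% of all genes), between M2 and M0 for 6 (23.4%), and between M1 and M2 for 5 (35.7%).

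**Figure D2:**
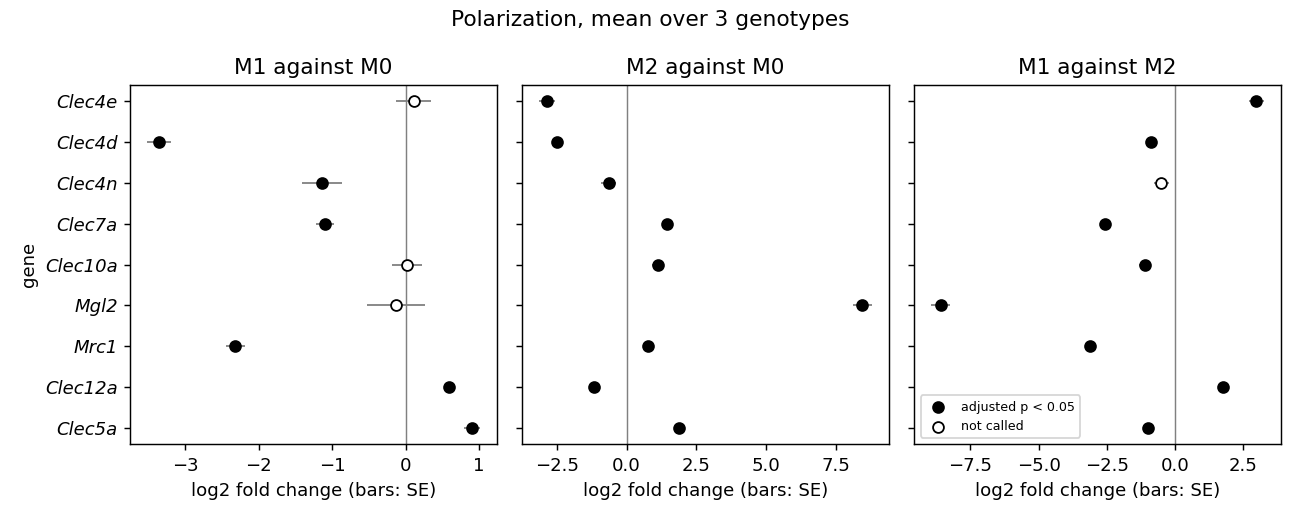
Log2 fold change of the 9 receptors in M1 against M0, M2 against M0 and M1 against M2, averaged over genotypes, with standard errors; filled points passed an adjusted p under 0.05 (edgeR). Mgl2 reached 8.46 in M2 against M0, and Clec4d lay at -3.36 in M1 against M0.

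Among the activating receptors, MCL (Clec4d, ENSMUSG00000030144), which also brings Mincle to the cell surface, had the largest fall of the 9 members in M1. Its lowest, median and highest values were 459, 592 and 699 CPM in M0, 21.5, 53.6 and 121 CPM in M1 and 83.7, 105 and 132 CPM in M2. Every M0 library lay above every polarized library, whereas M1 and M2 overlapped. In M1, replicates 1 and 2 of the 3 genotypes held 21.5 to 42.7 CPM and replicates 3 to 5 held 51.0 to 121 CPM. The level was 10.2-fold lower in M1 (log2 fold change -3.36 ± 0.16 SE, adjusted p = 1.9e-21, edgeR) and 5.61-fold lower in M2 (-2.49 ± 0.16, adjusted p = 1.8e-17).

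Mincle (Clec4e, ENSMUSG00000030142), a receptor for mycobacterial cord factor, ran differently. It ranged from 10.6 to 30.8 CPM in M0 with a median of 21.4, from 6.52 to 107 CPM in M1 with a median of 15.3 and from 1.42 to 6.38 CPM in M2 with a median of 2.23. All M2 libraries lay below all others, and the M1 libraries spread on both sides of M0. Clec4e was 7.24-fold lower in M2 than in M0 (log2 fold change -2.86 ± 0.28 SE, adjusted p = 5.2e-12, edgeR), and in M1 it did not pass the test (0.11 ± 0.24, adjusted p = 0.67). In M1 it was lower than in M0 in 11 of 15 mice and higher in 4. Within genotypes the M1 change was -0.62 ± 0.43 in p.254I (adjusted p = 0.21, edgeR), -0.38 ± 0.42 in p.254V (adjusted p = 0.44) and 1.34 ± 0.42 in p.284R (adjusted p = 0.0051). In p.284R the rise lay in replicates 3 to 5. Clec4e was lower in M1 than in M0 in replicate 1 (8.67 against 15.5 CPM) and replicate 2 (19.7 against 29.3 CPM). The test of the difference between p.284R and p.254I is given with the genotypes.

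Dectin-2 (Clec4n, ENSMUSG00000023349), which binds fungal mannans, ranged from 17.8 to 56.0 CPM in M0, from 8.16 to 46.0 CPM in M1 and from 6.25 to 50.1 CPM in M2, with medians of 41.6, 13.0 and 13.0 CPM. The ranges of M0, M1 and M2 overlapped. It was 2.20-fold lower in M1 (log2 fold change -1.14 ± 0.27 SE, adjusted p = 0.00022, edgeR) and 1.56-fold lower in M2 (-0.64 ± 0.26, adjusted p = 0.027), and lower than M0 in 12 of 15 mice in each. The M2 call was lost without replicate 3 of p.254I (adjusted p = 0.076) or of p.254V (0.060) and without replicate 4 of p.284R (0.055). The M2 values split by replicate number: replicates 1 and 2 of all genotypes held 28.9 to 48.6 CPM, replicate 3 of p.284R held 50.1 CPM, and the other 8 libraries held 6.25 to 13.0 CPM.

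Dectin-1 (Clec7a, ENSMUSG00000079293), the receptor for fungal beta-glucan, moved in opposite directions. Its lowest, median and highest values were 228, 294 and 411 CPM in M1, 321, 643 and 881 CPM in M0 and 1217, 1678 and 2383 CPM in M2. M2 lay above every other library, and M1 was below M0 in 15 of 15 mice although the ranges met. The difference was 2.14-fold down in M1 (log2 fold change -1.10 ± 0.12 SE, adjusted p = 7e-11, edgeR) and 2.74-fold up in M2 (1.46 ± 0.12, adjusted p = 5.3e-14).

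MDL-1 (Clec5a, ENSMUSG00000029915), a receptor for dengue virus, rose in both. Its values were 10.6 to 20.2 CPM in M0 with a median of 14.4, 20.4 to 42.8 CPM in M1 with a median of 25.9 and 39.3 to 85.1 CPM in M2 with a median of 46.5. No M0 library reached any polarized library, and M1 and M2 overlapped. The rise was 1.86-fold in M1 (log2 fold change 0.90 ± 0.11 SE, adjusted p = 2.4e-09, edgeR) and 3.67-fold in M2 (1.87 ± 0.11, adjusted p = 4.5e-18).

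**Figure D3:**
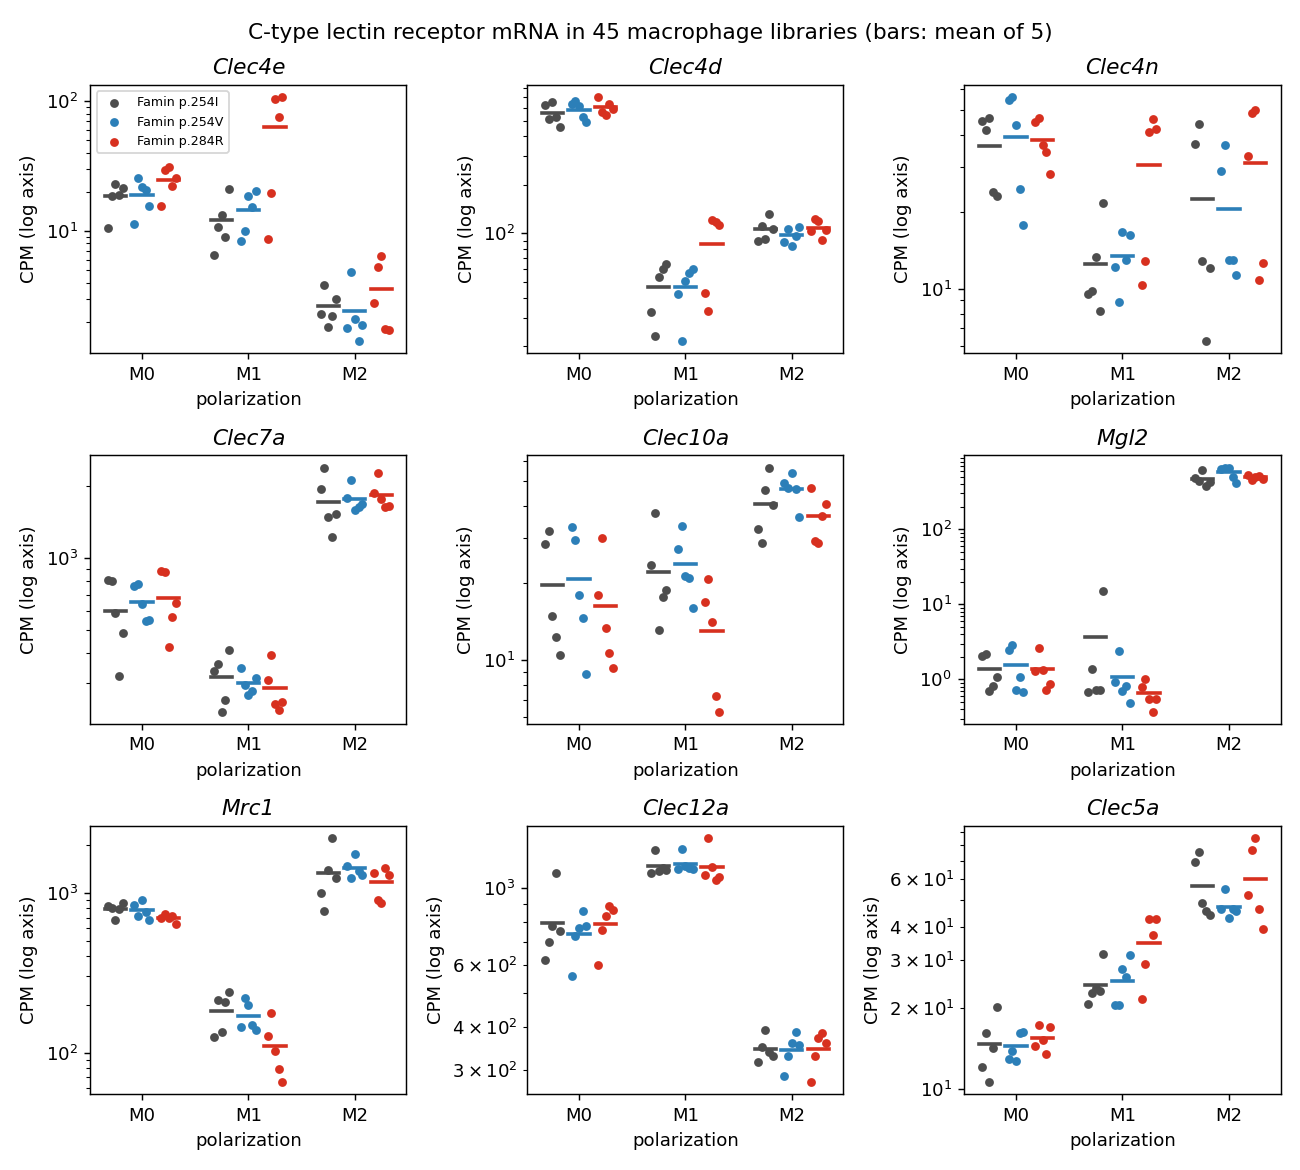
CPM (log axis) of each receptor in every library by polarization, coloured by Famin allele, with the mean of 5 mice as a bar. Mgl2 lay at 373 to 663 CPM in M2 and below 3 CPM elsewhere except for 1 M1 library at 15 CPM, and Clec4e reached 75.1 to 107 CPM in 3 p.284R M1 libraries.

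Among the uptake receptors, Mgl2 (ENSMUSG00000040950) was abundant in M2 and low in M0 and M1. It ranged from 0.684 to 2.87 CPM in M0, with a median of 1.09, and from 373 to 663 CPM in M2, with a median of 493. In M1 it ranged from 0.373 to 2.37 CPM in 14 libraries and was 15 CPM in p.254I replicate 5. The ranges of M2 and of the other states were apart. Mgl2 was 353-fold higher in M2 than in M0 (log2 fold change 8.46 ± 0.34 SE, adjusted p = 1.5e-23, edgeR) and did not pass the test in M1 (-0.13 ± 0.39, adjusted p = 0.77), although it was lower in M1 in 13 of 15 mice. Without the M1 library of p.254I replicate 5, Mgl2 was called lower in M1 (log2 fold change -0.77, adjusted p = 0.0058). That library also held the Arg1 and Retnla levels given above and 33.7 CPM of Chil3, against at most 19.3 CPM in the other M1 libraries, and the part of these in the Mgl2 value was not tested.

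The mannose receptor (Mrc1, ENSMUSG00000026712) was not low at rest. It had a lowest, median and highest level of 639, 742 and 896 CPM in M0, 65.5, 144 and 238 CPM in M1 and 773, 1298 and 2197 CPM in M2. M1 lay below all other libraries, and M0 and M2 overlapped, with M2 higher in 14 of 15 mice. Mrc1 was 4.99-fold lower in M1 (log2 fold change -2.32 ± 0.13 SE, adjusted p = 2.3e-19, edgeR) and 1.72-fold higher in M2 (0.78 ± 0.12, adjusted p = 4.9e-07).

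Clec10a (ENSMUSG00000000318) lies beside Mgl2 in the genome but changed far less. It ranged from 8.84 to 33.1 CPM in M0, 6.32 to 37.6 CPM in M1 and 28.7 to 56.5 CPM in M2, with medians of 14.9, 18.8 and 40.6 CPM. All 3 ranges overlapped, and M2 exceeded M0 in 13 of 15 mice. The rise in M2 was 2.18-fold (log2 fold change 1.13 ± 0.20 SE, adjusted p = 3.2e-06, edgeR), and M1 did not pass the test (0.02 ± 0.20, adjusted p = 0.94). The stretches common to both genes were 12.2% of those of Mgl2, which stood at a mean of 511 CPM in M2, where Clec10a had a mean of 41.3 CPM. Reads spread evenly over Mgl2 would put 62.6 CPM in these stretches, and the part of such reads in the Clec10a rise in M2 was not tested. In M0, replicates 1 and 2 of the 3 genotypes held 18.0 to 33.1 CPM and replicates 3 to 5 held 8.84 to 18.0 CPM.

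The inhibitory receptor Clec12a (ENSMUSG00000053063), which senses uric acid crystals, showed the reverse order to Dectin-1. Its lowest, median and highest values were 277, 349 and 392 CPM in M2, 560, 769 and 1110 CPM in M0 and 1058, 1140 and 1395 CPM in M1. M2 lay below every other library, and M1 exceeded M0 in each of the 15 mice, and the ranges overlapped through p.254I replicate 4 of M0 at 1110 CPM. Clec12a was 1.5-fold higher in M1 (log2 fold change 0.59 ± 0.07 SE, adjusted p = 3.1e-10, edgeR) and 2.25-fold lower in M2 (-1.17 ± 0.07, adjusted p = 1.2e-18).

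Set directly against M2, M1 macrophages had more Clec4e (7.84-fold, log2 fold change 2.97 ± 0.28 SE) and Clec12a (3.38-fold, 1.76 ± 0.07). They had less Mgl2 (log2 fold change -8.59 ± 0.35 SE), Mrc1 (-3.10 ± 0.13), Clec7a (-2.55 ± 0.12), Clec10a (-1.11 ± 0.20), Clec5a (-0.98 ± 0.11) and Clec4d (-0.87 ± 0.15). The largest adjusted p among these 8 was 3.7e-06 (edgeR). Without the M1 library of p.254I replicate 5 the Mgl2 value was -9.23. Clec4n did not pass (log2 fold change -0.50 ± 0.27, adjusted p = 0.088), and it was called without the M1 library of p.254I replicate 5 (-0.59, adjusted p = 0.047), without that mouse (-0.65, adjusted p = 0.033) or without replicate 4 (-0.65, adjusted p = 0.031) or 5 (-0.60, adjusted p = 0.046) of p.284R.

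Genotypes were compared within each polarization, 5 mice against 5, to ask whether the Famin allele changed receptor expression. In M1 macrophages of Famin p.284R mice Clec4e was higher than in p.254I. Its values in replicates 1 to 5 were 6.52, 10.8, 13.2, 8.95 and 21.1 CPM in p.254I, 8.38, 9.99, 18.7, 15.3 and 20.1 CPM in p.254V and 8.67, 19.7, 103, 75.1 and 107 CPM in p.284R. Replicates 3, 4 and 5 of p.284R lay above every library of the other genotypes, and replicates 1 and 2 lay within their range. Clec4e was 5.18-fold higher in p.284R than in p.254I (log2 fold change 2.37 ± 0.44 SE, adjusted p = 0.0097, edgeR) and 4.30-fold higher than in p.254V (2.10 ± 0.43, adjusted p = 0.034), and was higher in 5 of 5 pairs of the same replicate number in each case. It was the only member called, 1 of 9 in both comparisons, where 0.263% and 0.0775% of all genes tested were called.

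The Clec4e call depended on the libraries and the model. Against p.254I it was lost without replicate 3 (log2 fold change 2.12, adjusted p = 0.085), 4 (2.29, 0.065) or 5 (2.10, 0.11) of p.284R and without replicate 4 of p.254I (2.28, 0.053), and also when only M1 libraries were fitted (2.37, 0.42) or limma-voom was used (1.93, 0.10). Against p.254V it was lost when any of 10 of the 15 mice was left out (adjusted p from 0.053 to 0.32), with limma-voom (1.60, 0.41), with only M1 libraries (2.10, 0.64) or without a filter on low counts (2.10, 0.084). With the replicate number as a block, since same-numbered M1 libraries deviated together, Clec4e was called with a log2 fold change of 2.09 ± 0.29 (adjusted p = 0.00026) against p.254I and 1.82 ± 0.28 (adjusted p = 0.00082) against p.254V. The interaction, which tests whether the M1 response differed between p.284R and p.254I, gave 1.96 ± 0.59 with an unadjusted p of 0.0021 and did not pass adjustment (adjusted p = 1.0).

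Clec4d and Clec4n, the chromosomal neighbours of Clec4e, were high in the same p.284R libraries. Clec4d in M1 had 32.7, 23.0, 53.6, 60.1 and 64.5 CPM in p.254I, 41.9, 21.5, 51.0, 56.7 and 60.1 CPM in p.254V and 42.7, 33.2, 121, 118 and 112 CPM in p.284R. The log2 fold change in p.284R was 0.87 ± 0.26 against p.254I (adjusted p = 0.24, edgeR) and 0.88 ± 0.26 against p.254V (adjusted p = 0.33). Replicates 3 to 5 of p.284R lay above all libraries of the other genotypes. With the replicate block it was called in both, at 0.80 ± 0.13 (adjusted p = 0.0005) and 0.79 ± 0.13 (adjusted p = 0.00086). It was also called in the unblocked fit against p.254I without replicate 1 (1.04, adjusted p = 0.047) or 2 (1.08, adjusted p = 0.020) of p.284R, and against p.254V without replicate 2 of p.284R (1.09, adjusted p = 0.025).

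Clec4n in M1 had 9.52, 9.76, 13.3, 8.16 and 21.6 CPM in p.254I, 12.2, 8.84, 16.6, 13.0 and 16.2 CPM in p.254V and 10.3, 12.8, 40.9, 46.0 and 42.0 CPM in p.284R. The 3 high libraries were again replicates 3 to 5 of p.284R. Its log2 fold change was 1.30 ± 0.47 against p.254I (adjusted p = 0.46, edgeR), and 1.19 ± 0.31 with the replicate block (adjusted p = 0.033). Against p.254V it was 1.19 ± 0.47 (adjusted p = 0.66), and 1.06 ± 0.30 with the block (adjusted p = 0.062).

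Clec5a in M1 had 20.6, 22.7, 23.6, 23.1 and 31.6 CPM in p.254I, 20.4, 20.4, 27.8, 25.9 and 31.3 CPM in p.254V and 21.5, 29.1, 42.5, 37.2 and 42.8 CPM in p.284R. Replicates 3 to 5 of p.284R were above all libraries of the other genotypes. The log2 fold change against p.254I was 0.51 ± 0.19 (adjusted p = 0.48, edgeR), and 0.49 ± 0.14 with the block (adjusted p = 0.051). Against p.254V it was 0.46 ± 0.19 (adjusted p = 0.70), and 0.45 ± 0.14 with the block (adjusted p = 0.080).

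**Figure D4:**
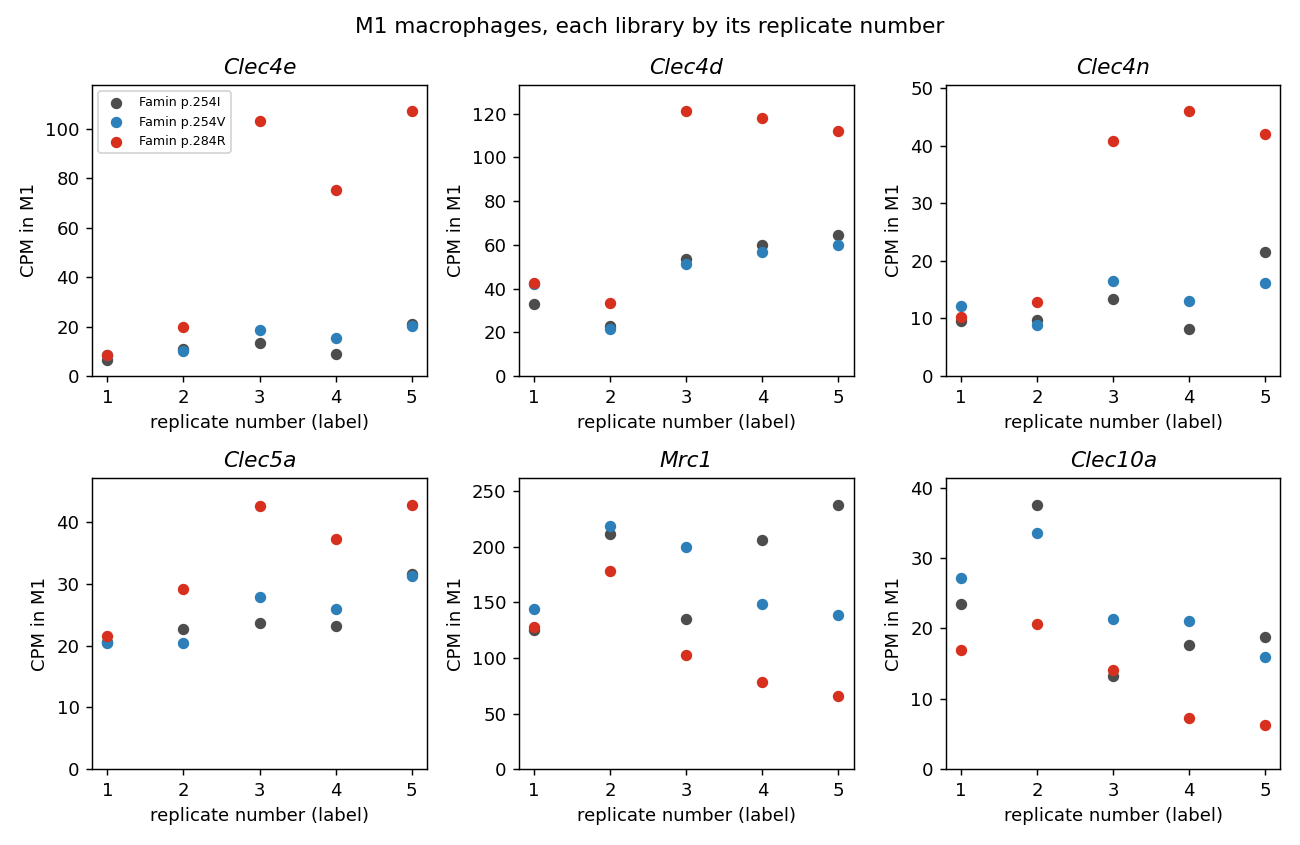
CPM of 6 receptors in M1 macrophages (axis from 0), with each library placed at the replicate number of its label and coloured by Famin allele. Replicates 3 to 5 of p.284R reached 75.1 to 107 CPM of Clec4e and 112 to 121 CPM of Clec4d, above all libraries of the other genotypes, and replicates 4 and 5 had the lowest Mrc1 at 78.8 and 65.5 CPM.

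Of the 3 uptake receptors, 0 passed the unblocked test in M1 between p.284R and p.254I. Mrc1 had 125, 212, 135, 206 and 238 CPM in p.254I, 144, 219, 200, 149 and 139 CPM in p.254V and 128, 178, 103, 78.8 and 65.5 CPM in p.284R. Replicates 3 to 5 of p.284R lay below every library of the other genotypes. Its log2 fold change against p.254I was -0.73 ± 0.22 (adjusted p = 0.24, edgeR), and -0.78 ± 0.21 with the block (adjusted p = 0.046). Mrc1 was also called in the unblocked fit without replicate 2 of p.284R (-0.96, adjusted p = 0.016). Without the M1 library of p.254I replicate 5, which held the highest Mrc1 value in M1, it was -0.62 (adjusted p = 0.45, edgeR). Against p.254V it did not pass in either fit, at -0.62 ± 0.22 (adjusted p = 0.56) without and -0.65 ± 0.21 (adjusted p = 0.10) with the block.

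Clec10a had 23.5, 37.6, 13.2, 17.7 and 18.8 CPM in p.254I, 27.2, 33.5, 21.3, 21.0 and 16.0 CPM in p.254V and 16.9, 20.7, 14.1, 7.27 and 6.32 CPM in p.284R M1 macrophages. Replicates 4 and 5 of p.284R were lowest of all. The other 3 lay within the range of p.254I, and replicate 3 lay below every p.254V library. The log2 fold change was -0.76 ± 0.35 against p.254I (adjusted p = 0.68, edgeR) and -0.86 ± 0.35 against p.254V (adjusted p = 0.67). With the block both were called, at -0.78 ± 0.19 (adjusted p = 0.026) and -0.91 ± 0.19 (adjusted p = 0.0096).

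Mgl2 in M1 had a log2 fold change of -2.37 ± 0.68 in p.284R against p.254I, which did not pass in edgeR (adjusted p = 0.20) and passed in the DESeq2 Wald test (-2.50, adjusted p = 0.011). It rests on the 15 CPM of p.254I replicate 5, since the other M1 libraries of p.254I held 0.674 to 1.39 CPM and those of p.284R 0.373 to 0.997 CPM. Without that library the Mgl2 log2 fold change was -0.46 (adjusted p = 0.93, edgeR). Clec7a (-0.16 ± 0.20, adjusted p = 0.98) and Clec12a (-0.01 ± 0.12, adjusted p = 1.0) did not pass, with M1 ranges of 231 to 391 and 1058 to 1395 CPM in p.284R against 228 to 411 and 1105 to 1291 CPM in p.254I.

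An unadjusted p under 0.05 in M1 was found for 7 of 9 members between p.284R and p.254I, where 6.70% of all genes had one, and for 6 of 9 between p.284R and p.254V, where 6.19% had one. The 7 include Mgl2, whose value rests on p.254I replicate 5. With the replicate block 5 members were called against p.254I, where 2.66% of all genes were called, and 3 against p.254V, where 2.52% were called. These counts are no test of the set, because its members were chosen with earlier results of these data known. Nor are the members independent, since replicates 3 to 5 of p.284R stood out for Clec4e, Clec4d, Clec4n, Clec5a and Mrc1. The same 3 p.284R libraries differed in M1 genes outside the set. Nos2 had 25.6, 8.60, 81.5, 149 and 131 CPM in replicates 1 to 5 of p.284R and 3.01 to 26.0 CPM in p.254I, and Cxcl9 had 3350, 1777, 5340, 4723 and 5125 CPM against 979 to 3485 CPM. The part of this shared pattern in the receptor differences was not tested. Neutrophils also express Clec4e, Clec4d and Clec5a. Of the 10 neutrophil markers 6 had a mean of at least 1 CPM in M1, and their summed level ranged from 47.8 to 140 CPM in p.284R, 63.6 to 101 CPM in p.254V and 48.9 to 156 CPM in p.254I M1 libraries.

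No member was called in the other genotype comparisons, by edgeR or under any alternative run. In M0 and in M2, p.284R against p.254I gave 0 of 9 members past the threshold and 0 below an unadjusted p of 0.05, where 0% and 0.00775% of all genes were called and 1.08% and 1.15% had an unadjusted p under 0.05. Log2 fold changes of the members lay between -0.27 and 0.41 in M0 and between -0.18 and 0.47 in M2. Between p.284R and p.254V 0 of 9 were called in M0 and in M2, as of all genes (0%). Between p.254V and p.254I 0 of 9 were called in each polarization, as of all genes (0%), and 1 member, Mgl2 in M1, had an unadjusted p under 0.05, as did 0.930% of all genes. Its log2 fold change there was -1.66 ± 0.61, and 0.26 without the M1 library of p.254I replicate 5. In the 4 interactions of genotype with M1 or M2 polarization, where 0% of all genes were called, 0 members passed. An unadjusted p below 0.05 was found for 3 members in the M1 response of p.284R against p.254I: Clec4e, Clec4d (0.74 ± 0.36) and Mgl2 (-2.36 ± 0.94). Of all genes 2.76% had one, and the Mgl2 value was -0.45 (adjusted p = 1.0, edgeR) without the M1 library of p.254I replicate 5.

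The signalling partners were taken from lists of pathway genes, whose counts stand beside 77.3% of all genes called in M1, 76.4% in M2 and 0.263% between p.284R and p.254I in M1. Of the 3 adaptors, FcRγ (Fcer1g) rose in M1 from 587 ± 48.8 to 969 ± 55.5 CPM (SD, n = 15; log2 fold change 0.72 ± 0.04 SE, adjusted p = 4e-21, edgeR), while DAP12 (Tyrobp, -0.29 ± 0.04) and DAP10 (Hcst, -0.19 ± 0.05) fell. In M2 only Tyrobp of the 3 was called (-0.15 ± 0.04, adjusted p = 0.00027). The CARD9 branch had 7 of 11 genes higher and 3 lower in M1, and 2 higher and 7 lower in M2. Syk, the kinase that receptor ITAMs recruit, fell in both (-0.79 ± 0.06 and -0.34 ± 0.06). Card9 rose in M1 (0.47 ± 0.06), and in M2 it did not pass (0.05 ± 0.06, adjusted p = 0.47).

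Further along the branch, Malt1, the protease of the CARD9 complex, fell in M1 from 60.4 ± 9.70 to 32.2 ± 2.56 CPM (SD, n = 15) and rose in M2 to 145 ± 20.7 CPM. Prkcd, the kinase that phosphorylates CARD9, rose in M2 from 390 ± 16.3 to 1409 ± 83.8 CPM (log2 fold change 1.85 ± 0.03 SE). Plcg2 rose in M1 (0.73 ± 0.05), and Vav1 and Nfatc1 fell in M2 (-0.70 ± 0.04 and -0.68 ± 0.05). Of 7 phosphatases and Src kinases, 6 rose and 1 fell in M1, including SHP-1 (Ptpn6, 1.38 ± 0.08), the phosphatase that ITIM receptors such as Clec12a recruit. In M2, 2 rose and 4 fell, with Ptpn6 lower (-0.72 ± 0.08). In p.284R against p.254I M1 macrophages 0 of the 3, 11 and 7 genes were called.

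Of 34 other C-type lectin receptors listed, 33 were in the count table and 21 were tested. In M1, 7 rose and 10 fell, and in M2, 9 rose and 10 fell, where 77.3% and 76.4% of all genes were called. Clec9a, a receptor for exposed actin on dead cells that lies between Clec12a and Clec7a, rose from 0.451 ± 0.181 CPM in M0 to 304 ± 66.7 CPM in M1 (SD, n = 15; log2 fold change 9.42 ± 0.16 SE, adjusted p = 3.1e-36, edgeR), and its level in M2 was 0.801 ± 0.312 CPM. Its neighbour Clec1a fell in M1 (-3.88 ± 0.28), as did the scavenger receptor Colec12 (-4.09 ± 0.12), and Cd69, an early activation marker, rose (5.10 ± 0.15). In M2 Olr1, the receptor for oxidized LDL, rose from 0.230 ± 0.115 to 6.34 ± 2.02 CPM (4.79 ± 0.23) and the ITIM receptor Clec4a2 rose to 308 ± 55.2 CPM (1.18 ± 0.08), whereas Cd302 (-1.45 ± 0.07) and Pla2r1 (-1.02 ± 0.19) fell. In p.284R against p.254I M1 macrophages 0 of the 21 were called, against 0.263% of all genes.

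Clec9a and Mgl2 also mark dendritic cells. The summed level of 7 other dendritic cell markers ranged from 0.545 to 1.94 CPM in M0, 5.75 to 12.2 CPM in M1 and 3.99 to 13.1 CPM in M2. In M1 its leading gene was Xcr1 at 4.62 to 10.6 CPM and in M2 Zbtb46 at 3.80 to 12.4 CPM, and Flt3 did not exceed 0.317 CPM in any library. In M1 and in M2, 1 of the 7 had a mean of at least 1 CPM. Cd209a had a mean under 1 CPM in every group of each genotype, and was at 0 in all p.284R M1 libraries. The part of these markers in the Clec9a and Mgl2 changes was not tested.

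Likeness of pattern was described by Pearson's r of log2 CPM (pseudocount 1) over the 45 libraries, which share 3 polarizations and 15 mice. The genes most like Mgl2 were Retnla (r = 0.994), Il31ra (0.994) and Arg1 (0.993), and those most like Clec7a were Klf9 (0.984), Cd200r1 (0.983) and Ppp1r1a (0.982). Clec4e was most like Marcksl1 (0.962), Relb (0.930) and Card19 (0.929), and Clec4d was most like St18 (0.971), Ms4a7 (0.971) and Por (0.968). For Clec12a they were Map3k9 (0.977), Fgd2 (0.976) and Nfxl1 (0.973), for Mrc1 Fcrls (0.976), Gmpr (0.975) and Anxa3 (0.975), and for Clec5a Psme3 (0.959), Hsp90ab1 (0.957) and Ddx21 (0.955). Clec10a (Kctd12, 0.873, Fcgr2b, 0.864, and Idh3g, 0.842) and Clec4n (Gsr, 0.797, and Atrnl1, 0.783) had less similar nearest genes. Among the members, the highest r was 0.888, between Clec7a and Mgl2, which lie on different chromosomes. Mrc1 was most like Clec7a (0.855) and Clec5a most like Mgl2 (0.795). Clec4e was most like Clec12a (0.757) and Clec10a most like its neighbour Mgl2 (0.747), and the neighbours Clec4d and Clec4n had r = 0.660.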

How the data were processed

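RNA of 45 macrophage cultures was sequenced as stranded single-end 50-base reads. The authors deposited raw counts per Ensembl gene and a table of CPM, from which whole reads were recovered (100% of values within 0.01 of a whole number, and equal to the counts). The labels name Trim Galore and HISAT2, the series text Cutadapt and STAR, both with mm10. The counting tool, its annotation and its use of strand are not given in the sources used here.

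The test was edgeR 4.0.16 under R 4.3.3 (filterByExpr over 9 groups, TMM factors 0.939 to 1.10, robust glmQLFit of the 9 groups, glmQLFTest), and called at a Benjamini-Hochberg adjusted p under 0.05 over 12905 genes. CPM printed here use TMM-scaled library sizes, and RPKM divides them by merged exon length from GENCODE. Tables and plots were made with Python 3.11.15, pandas 2.3.3 and matplotlib 3.10.9. The fit was tested on simulated counts with 200 changed genes. The simulated libraries were drawn independently, so this did not cover the shared deviations of same-numbered libraries. GENCODE symbols matched 29150 gene identifiers.

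The members, gene lists and tests were chosen with earlier results of these data known. Genes named outside the members are Fcer1g, Tyrobp, Syk and Card9, per list and polarization up to 2 called genes in each direction with the largest change among those with a mean of at least 1 CPM, per member the 3 genes with the highest correlation, and label checks. Chil3, Xcr1, Zbtb46, Flt3 and Cd209a were named after their values were seen. Some genes that the rule names are not reported here.

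Same-numbered libraries of different genotypes deviated together over 8404 genes, with correlations over 0.1 in 15 of 15 pairs in M0 and in M1 and in 13 of 15 in M2. Their median correlation was 0.697 in M0, 0.517 in M1 and 0.445 in M2. Libraries read as the same mouse had medians of 0.286 between M0 and M1, 0.478 between M0 and M2 and 0.126 between M1 and M2. Same-numbered libraries of different genotypes were therefore taken as pairs in M0 and M1. The block of replicate number was fitted in M2 as well, where the lowest correlation was -0.44. What a number stands for is not given in the sources used here. Alternatives were DESeq2 size factors, DESeq2 1.42.0, limma-voom (limma 3.58.1, the tool of the study's methods), no low-count filter, fewer libraries in the fit, a replicate block, each mouse left out, longest transcripts as length, no TMM, and 2 added after seeing the data: the recovered reads, and the M1 library of p.254I replicate 5 left out.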

Additional observations from a re-analysis of the deposited data

Results flagged for a closer look

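Values were compared within each group of 5 libraries, and a library was picked out when its gap to the nearest other library was large against the range of the group. Of 81 groups tested, 8 were picked out, where chance gives about 4.05 (1 in 20). Mgl2 was 15 CPM in p.254I replicate 5 of M1, the library that also held Arg1 and Retnla, and 2.37 CPM in p.254V replicate 2 of M1. Clec12a was highest in replicate 2 of M1 in each genotype, at 1291 CPM in p.254I, 1298 CPM in p.254V and 1395 CPM in p.284R. Clec5a stood out at 31.6 CPM in p.254I replicate 5 of M1 and at 55.0 CPM in p.254V replicate 2 of M2, and Clec4e at 4.86 CPM in p.254V replicate 2 of M2.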

How the results depend on the processing

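Precision is limited by 5 mice per group, by low counts of Mgl2 in M0 and M1 and of Clec4e in M2, and by sequence shared between Clec10a and Mgl2. The number of members called between p.284R and p.254I in M1, 1 as reported, was 2 with DESeq2, 0 with limma-voom, 0 with only the M1 libraries, 5 with the replicate block, and 0 to 3 with 1 mouse left out. Against p.254V, 1 as reported, it was 0 without a low-count filter, 0 with limma-voom, 0 with only the M1 libraries, 3 with the replicate block, and 0 to 2 with 1 mouse left out. The causes were not tested. Over all genes the first comparison called 34 genes as reported, 64 with DESeq2, 11 with limma-voom, 0 with only the M1 libraries, 343 with the block and 0 to 109 with 1 mouse left out, and the second called 10, 21, 0, 0, 325 and 0 to 65, and 4 without the filter. In p.254V against p.254I in M1, M0 and M2 DESeq2 called 3, 1 and 2 genes where edgeR called 0. In p.284R against p.254I, DESeq2 called 1 gene in M0 and 2 in M2, where edgeR called 0 and 1, and the fit of M2 libraries alone called 0.

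The members called between polarizations were 6 to 7, 8 to 9 and 8 to 9 over all alternatives for M1 against M0, M2 against M0 and M1 against M2. The block of mouse or replicate number, the pairing, changed no other count of members called. With the longest transcript as length, 5 of 9 members kept their rank in M2.

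Some log2 fold changes that did not pass the test changed sign. For M1 against M0, Clec4e was -0.10 with limma-voom, and with 1 mouse left out Clec10a ranged from -0.01 to 0.09 and Mgl2 from -0.79 to 0.03. For p.284R, Clec12a ranged from -0.08 to 0.04 against p.254I, from -0.10 to 0.01 against p.254V and from -0.16 to 0.08 for the M1 response. For p.254V against p.254I in M1, Clec4d was 0.02 with limma-voom and 0.01 with the replicate block, and with 1 mouse left out Clec4d ranged from -0.19 to 0.17, Clec4n from -0.01 to 0.39, Clec7a from -0.18 to 0.02, Clec10a from -0.05 to 0.38, Mgl2 from -2.18 to 0.25, Mrc1 from -0.21 to 0.01, Clec12a from -0.01 to 0.06 and Clec5a from -0.04 to 0.16. Without the M1 library of p.254I replicate 5 they were 0.13 for Clec4d, 0.02 for Clec7a, 0.26 for Mgl2 and 0.00 for Mrc1.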
